A study of Mus musculus with 6 samples.

Results

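The RNA of 61 autophagy and lysosome genes was compared in day 3 induced germinal center B cells (iGCBs) with and without conditional deletion of *Eif3e*, the gene of a subunit of translation initiation factor eIF3. The set comprised 38 symbols chosen by name, covering autophagosome formation, cargo receptors, the MiT/TFE transcription factors and lysosomal proteins, and the 23 genes of the count table whose symbols start with Atp6v, which are 22 subunit genes of the proton pump V-ATPase and the processed pseudogene *Atp6v0c-ps2*. The set was chosen with earlier results of these data known. Its members were 61 of the 24499 genes of the table, and 55 of them passed the filter on low counts. The 6 others, *Atp6v0a4*, *Atp6v0d2*, *Atp6v1b1*, *Atp6v1c2*, *Atp6v1e2* and *Atp6v1g3*, encode subunit forms made mainly in other tissues and lay between 0 and 0.0943 counts per 1000000 counts of the library (CPM) in every library.

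There were 3 cKO and 3 control libraries of poly(A) RNA-seq, each from sorted YFP+ cells of a day 3 culture. The cKO mice carried *Eif3e* fl/fl with *Cγ1*Cre and the Cre-dependent *Rosa26* YFP reporter; the labels call the other group control and its libraries cgWT, and give no alleles, while control mice elsewhere in the study were described as carrying *Cγ1*Cre and the reporter without floxed *Eif3e*. Cre expression follows transcription of the immunoglobulin γ1 constant region, so recombination is limited to activated B cells that transcribe that region, and YFP marks cells with past Cre activity. All cultures were grown from splenic naive B cells for 3 days with IL-4 on irradiated 40LB feeders, fibroblasts that supply CD40L and BAFF, and the ages of the mice were not given in the sources used here. Libraries held 39079582 to 45504570 counts, at which 3 counts corresponded to 0.0659 to 0.0768 CPM. *Eif3e* RNA was at 150, 152 and 173 CPM in the cKO libraries and at 392, 401 and 424 CPM in the controls, which matches the labels (log2 fold change -1.36, SE 0.0657).

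In macroautophagy, a double membrane grows around cytoplasmic cargo, closes to form the autophagosome, and fuses with the lysosome, where acid hydrolases degrade the contents. The ULK1 kinase complex starts the process, a class III PI3-kinase complex marks the membrane with phosphatidylinositol 3-phosphate, and a ubiquitin-like conjugation cascade attaches ATG8 proteins (the LC3 and GABARAP families) to it. Cargo receptors bridge cargo to ATG8, and the V-ATPase acidifies the lysosome. Autophagy is known in B cells for its part in the survival of plasma cells and memory B cells. All values below are RNA levels, which measure neither autophagic flux nor lysosomal activity, and in bulk RNA fewer cells with a transcript and less of it per cell cannot be told apart.

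Most of the genes were lower in cKO iGCBs. At an adjusted p under 0.05 (edgeR quasi-likelihood test, Benjamini-Hochberg adjustment over 13296 genes), 34 of the 55 tested members (61.8%) were lower and 5 (9.09%) were higher, where the background over all tested genes was 24.5% lower and 24.1% higher. With a change over 1.5-fold required as well, 12 members were lower and 0 were higher, against backgrounds of 10.6% and 10.4%. The cKO libraries lay entirely below the controls for 35 members and entirely above for 5, against backgrounds of 29.5% and 29.2%. The median log2 fold change of the members was -0.27, with a range of -0.99 to 0.43, and that of all tested genes was -0.00402. The decreases were therefore mostly partial, and the 12 past both cutoffs left 50.4% (*Bnip3*) to 64.8% (*Atg14*, *Atg2a*) of the control level.

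**Figure D1:**
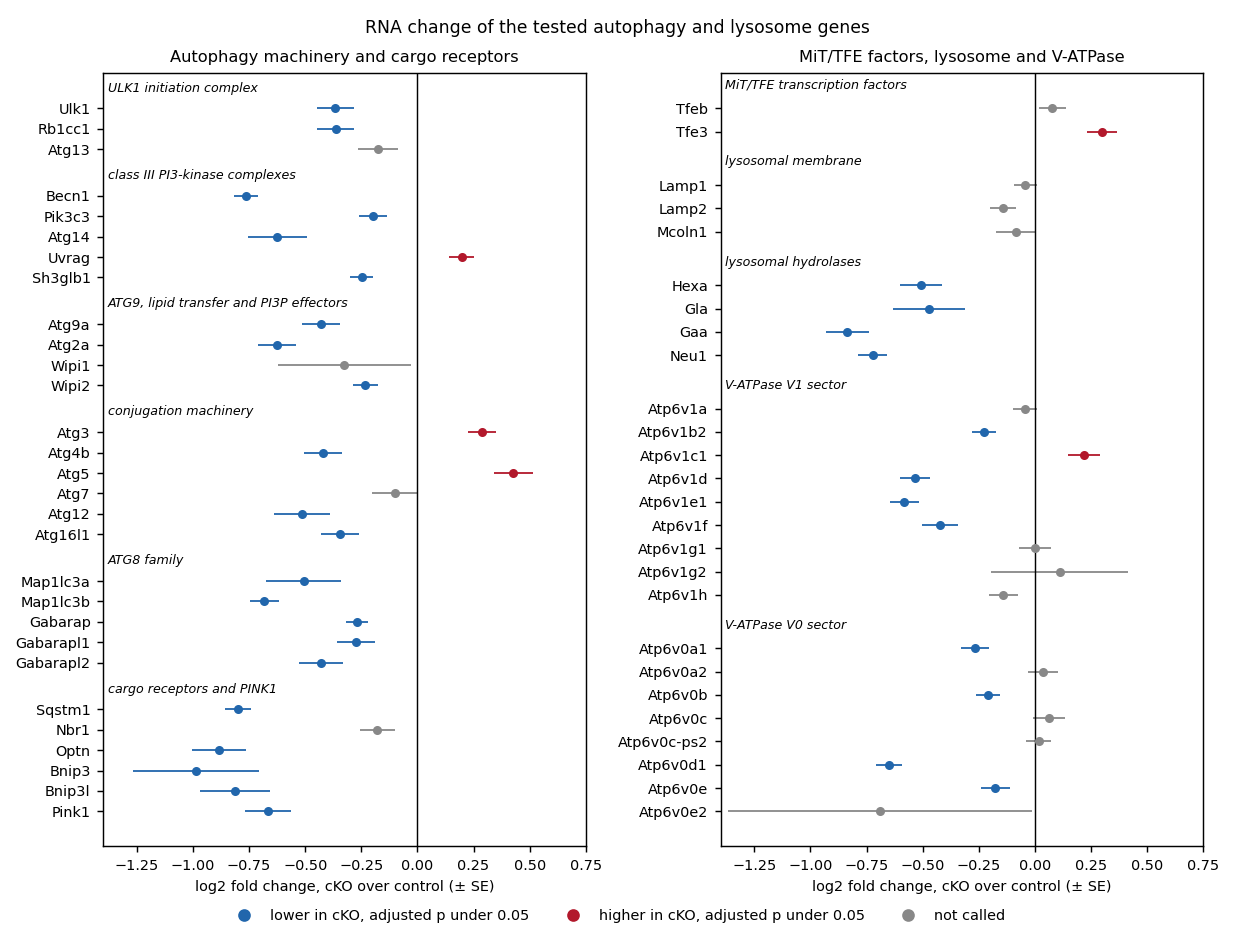
The log2 fold change of each of the 55 tested genes (cKO over control, horizontal axis; bars are ± SE) is drawn by role, blue for lower, red for higher and grey for not called. Of the points, 34 are blue and 5 are red, and the cargo receptors *Bnip3* and *Optn* stand farthest to the left.

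By step of the pathway, the 29 genes of the autophagy machinery and its cargo receptors included 22 that were lower, 3 that were higher and 4 that were not called. All 4 hydrolases were lower, while 0 of the 3 lysosomal membrane genes and 8 of the 17 tested V-ATPase genes were.

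**Figure D2:**
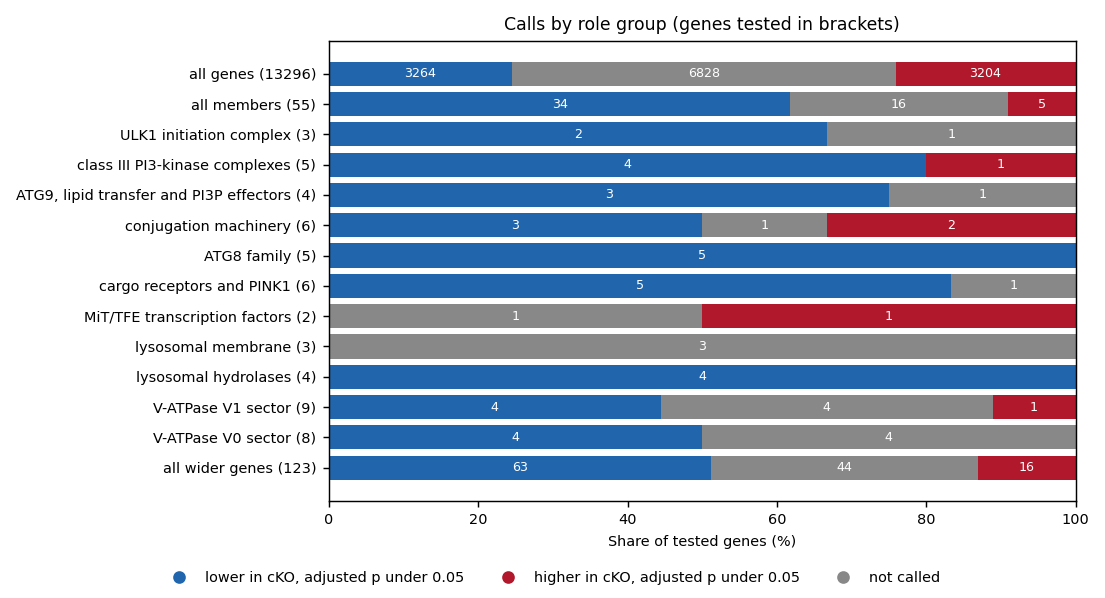
Bars give the share (%) of tested genes of each role group that were lower, not called or higher at an adjusted p under 0.05, with the number of genes in each segment. The uppermost bar, over all 13296 tested genes, is split almost evenly between lower and higher, and the bar for the 55 members is mostly lower.

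Among the initiation genes, *Ulk1* encodes the kinase that starts autophagosome formation and *Rb1cc1* its scaffold FIP200. *Ulk1* was at 53.9, 62.0 and 57.9 CPM in cKO libraries 1 to 3 and at 76.3, 80.6 and 67.1 CPM in control libraries 1 to 3, and was lower without overlap (log2 fold change -0.37, SE 0.0811, adjusted p = 0.00391 by edgeR). *Rb1cc1* fell by the same amount (-0.36). The values of *Atg13*, the adaptor of that complex, overlapped between the groups at 35.1 to 37.8 CPM in cKO and 37.0 to 44.0 CPM in control libraries, and it was not called (-0.18), except without control replicate 3 (adjusted p = 0.0326 by edgeR).

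Of the 5 genes of the class III PI3-kinase complexes 4 were lower and 1 was higher. *Becn1*, at chr11:101285952-101302286 on the minus strand (mm10), encodes Beclin 1, the regulatory scaffold of both complexes. It was at 80.2, 78.4 and 85.6 CPM in the cKO libraries and at 138, 139 and 137 CPM in the controls. Every cKO library was thus well under every control, with 58.9% of the control level left (log2 fold change -0.76, SE 0.0535, adjusted p = 3.56e-06). *Atg14*, the subunit that directs the complex to autophagosome formation, was at 9.23, 12.2 and 10.4 CPM in the cKO libraries and at 16.2, 17.99 and 14.9 CPM in the controls (-0.63, SE 0.131, adjusted p = 0.00278, edgeR). The cKO libraries were again all below the controls. *Pik3c3*, the catalytic subunit VPS34, was lower by less (-0.20), and its call was lost in 4 of 15 alternatives.

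Beclin 1 is shared, whereas *Atg14* and *Uvrag* mark 2 alternative complexes. *Uvrag*, whose product acts in endosome and autophagosome maturation, was at 382, 401 and 385 CPM in the cKO libraries and at 332.5, 323 and 364 CPM in the controls, higher in all 3 cKO libraries by a small margin (log2 fold change 0.20, SE 0.0564, adjusted p = 0.0153 by edgeR). Its call was lost without cKO replicate 2, control replicate 1 or control replicate 2 (adjusted p up to 0.0694, edgeR). *Sh3glb1*, which encodes the membrane-curving protein Bif-1 that binds UVRAG, was at 141, 136 and 135 CPM in the cKO libraries and at 163, 156 and 171 CPM in the controls. It was lower without overlap (-0.25, SE 0.0529, adjusted p = 0.00300 by edgeR).

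Of the genes for membrane supply and phosphoinositide reading, *Atg2a* encodes a lipid transfer protein that feeds the growing membrane. *Atg2a* (chr19:6241668-6262335, plus strand) was at 68.7, 79.3 and 81.1 CPM in the cKO libraries and at 110, 132 and 112 CPM in the controls, a decrease without overlap (log2 fold change -0.63, SE 0.0855, adjusted p = 0.000192, edgeR). *Atg9a*, the scramblase of the seed vesicles, and *Wipi2*, which reads phosphatidylinositol 3-phosphate and recruits ATG16L1, were lower by -0.43 and -0.23 on the log2 scale. *Wipi1* was the lowest of these genes at 1.84 to 4.74 CPM and was not called.

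The conjugation genes did not move together. Of 6, *Atg4b*, *Atg12* and *Atg16l1* were lower, *Atg3* and *Atg5* were higher, and *Atg7* was not called. ATG12 is joined to ATG5, and this conjugate with ATG16L1 is the ligase of the ATG8 lipidation step, so that genes of a single complex were on both sides. *Atg12* was at 32.1, 23.5 and 30.7 CPM in the cKO libraries and at 43.7, 43.2 and 36.6 CPM in the controls (log2 fold change -0.52, SE 0.124, adjusted p = 0.00611 by edgeR). *Atg5* was at 36.9, 36.4 and 38.7 CPM in the cKO libraries and at 28.3, 25.4 and 29.6 CPM in the controls. This increase was the largest among the 55 tested members (0.43, SE 0.0857, adjusted p = 0.00214, edgeR). *Atg3*, the enzyme that passes ATG8 to the lipid, was higher by 0.29, and *Atg7*, the activating enzyme, overlapped between groups at 26.2 to 29.85 and 26.2 to 32.0 CPM.

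All 5 measured ATG8 family genes were lower. *Map1lc3b*, at chr8:121590361-121598760 on the plus strand and the source of the LC3B protein used as the standard marker of autophagosomes, was at 89.6, 80.0 and 88.4 CPM in the cKO libraries and at 148, 133 and 134 CPM in the controls (log2 fold change -0.68, SE 0.0657, adjusted p = 2.13e-05 by edgeR). No cKO library reached a control, and 62.3% of the control level was left. *Gabarap* was at 124, 125 and 122 CPM in the cKO libraries against 147, 149 and 152 CPM in the controls (-0.27). *Gabarapl2* was at 21.8, 25.05 and 24.2 CPM against 35.3, 30.8 and 29.6 CPM (-0.43), and *Gabarapl1* at 25.9, 26.7 and 25.5 CPM against 29.8, 33.5 and 31.1 CPM (-0.27). *Map1lc3a* had the lowest level, 4.56, 5.60 and 4.76 CPM against 6.27, 6.67 and 8.28 CPM (-0.51, adjusted p = 0.0288 by edgeR). The groups did not overlap for any of the 5, but with 1 library left out the calls of *Gabarapl1* (without cKO 1, cKO 3 or control 2, adjusted p up to 0.0730 by edgeR) and *Map1lc3a* (without cKO 1, cKO 3 or control 3, up to 0.105) were lost.

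Per length of all annotated exons of a gene, *Gabarap* held most of the ATG8 family RNA in both groups. Its level was 272 ± 4.15 transcripts per 1000000 transcripts (TPM; SD, n = 3) in control and 224 ± 2.13 TPM in cKO libraries, compared with 61.8 ± 3.77 and 38.2 ± 2.74 TPM for *Map1lc3b*. *Gabarapl1* and *Gabarapl2* were at 52.7 ± 3.59 and 46.2 ± 4.41 TPM in the controls and *Map1lc3a* at 20.1 ± 2.85 TPM. The exon length was 1844 bases for *Gabarap* and 7517 for *Map1lc3b*, while their control means in CPM were 149 and 138. The order therefore depends on the lengths used.

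As a group, the cargo receptors and *Pink1* had the largest median decrease of the role groups. Of these 6 genes 5 were past both cutoffs, with a group median log2 fold change of -0.81, and *Nbr1* was not called, except without control replicate 3 (adjusted p = 0.0462 by edgeR). *Sqstm1* (chr11:50199366-50210827, minus strand) encodes p62, which carries ubiquitinated proteins to ATG8 and is itself degraded in the process. It was at 169, 173 and 182 CPM in the cKO libraries and at 305, 284 and 323 CPM in the controls. All cKO values were far below all control values, with 57.5% of the control level left (-0.80, SE 0.0579, adjusted p = 4.20e-06 by edgeR). *Optn* (chr2:5020642-5064051, minus strand), the receptor optineurin that acts on damaged mitochondria and bacteria, was at 13.3, 11.2 and 10.9 CPM in the cKO libraries and at 22.2, 23.7 and 19.5 CPM in the controls (-0.88, SE 0.120, adjusted p = 0.000189 by edgeR). It too was lower in every cKO library than in any control. *Nbr1*, which carries ubiquitinated cargo like p62, had overlapping ranges of 55.9 to 62.5 CPM in cKO and 62.5 to 73.6 CPM in control libraries (-0.18, adjusted p = 0.0851, edgeR).

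The mitophagy receptors showed a wide spread among the cKO libraries. *Bnip3* (chr7:138890836-138909519, minus strand) and *Bnip3l* (NIX; chr14:66985239-67008877, minus strand) encode paralogous proteins of the outer mitochondrial membrane that bind ATG8 directly and are known targets of the hypoxia response. *Bnip3* was at 146, 88.5 and 52.0 CPM in cKO libraries 1 to 3 and at 219, 175 and 174 CPM in the controls. *Bnip3l* was at 278, 201 and 161 CPM in the same cKO libraries and at 397, 361 and 366 CPM in the controls. In both genes cKO 1 was nearest to the controls and cKO 3 the lowest, and no cKO library overlapped a control. The log2 fold change of *Bnip3* was the largest of the set but the least precise of the 12 past both cutoffs (-0.99, SE 0.281, adjusted p = 0.0147 by edgeR), and its call was lost in DESeq2 (adjusted p = 0.0512) and without cKO replicate 2 or control replicate 1 (0.0614 and 0.0562). That of *Bnip3l* was -0.81 (SE 0.155, adjusted p = 0.00159 by edgeR). *Pink1* (chr4:138313409-138326307, minus strand), the kinase that marks depolarized mitochondria for removal, was at 35.8, 44.3 and 41.1 CPM in the cKO libraries and at 70.3, 65.3 and 56.3 CPM in the controls, lower without overlap and in another order of the cKO libraries (-0.66, SE 0.102, adjusted p = 0.000408, edgeR).

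**Figure D3:**
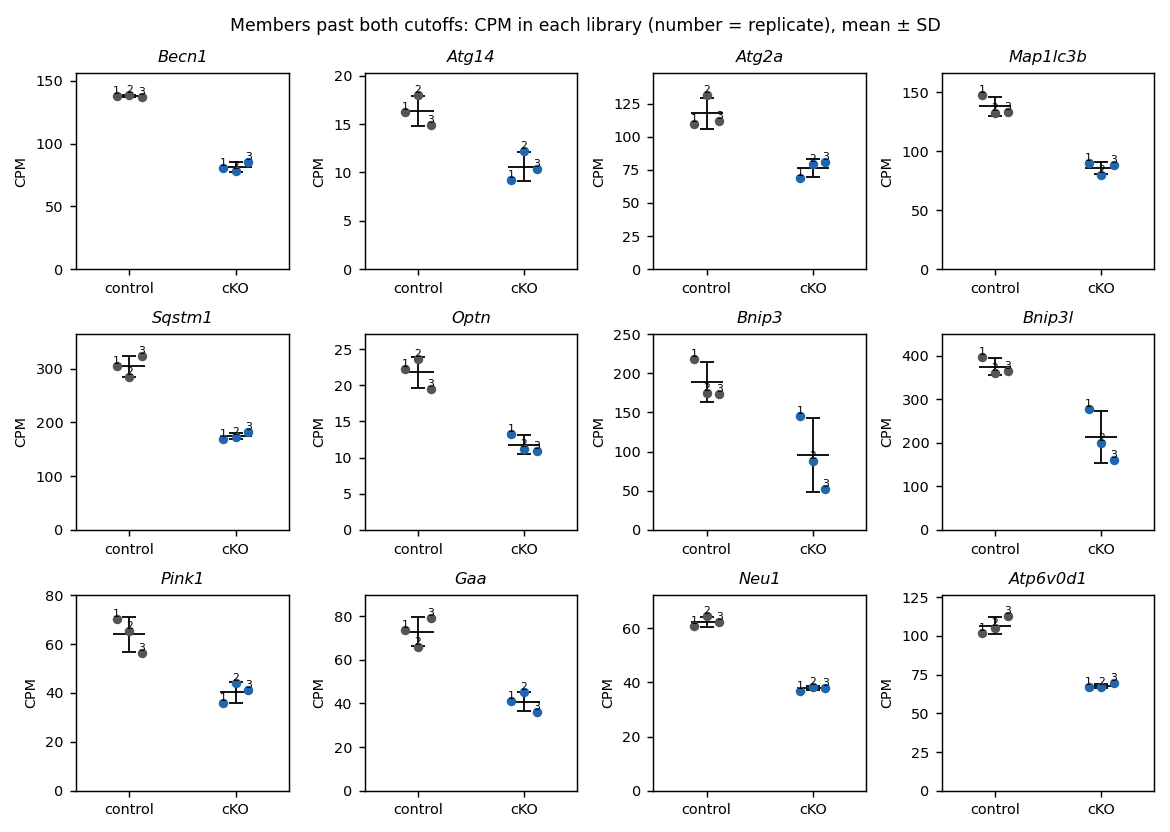
CPM of the 12 genes past both cutoffs in each control (grey) and cKO (blue) library, numbered by replicate, with mean ± SD; all axes start at 0. The groups do not overlap in any panel, and the 3 cKO points are spread most widely for *Bnip3* and *Bnip3l*.

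TFEB and TFE3 are transcription factors of the MiT/TFE family that drive lysosomal and autophagy genes when they enter the nucleus. *Tfe3* was at 59.2, 60.3 and 60.9 CPM in the cKO libraries and at 45.7, 50.02 and 50.9 CPM in the controls, so that every cKO library was higher (log2 fold change 0.30, SE 0.0669, adjusted p = 0.00399 by edgeR). *Tfeb* was at 85.2 to 88.7 CPM in cKO and 76.4 to 87.7 CPM in control libraries, which overlapped (0.08, adjusted p = 0.328 by edgeR). The RNA level does not measure the nuclear share of either protein.

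These factors bind the sequence CACGTG, and in lysosomal gene promoters typically with a T before it (TCACGTG). Promoters from 250 bases before to 50 bases after the RefSeq start (GRCm38.p6) were found for 42 of the 55 tested members, under 80%, so the shares are given as a description and nothing is read from their difference. On either strand TCACGTG was in 11 of these 42 (26.2%), in 6.94% of the promoters of 10100 tested genes and in 3.77% of all 32851 promoters. Of the 11, 6 were lower, 1 was higher and 4 were not called, so members with these letters were found in each class. Stretches upstream of the start from 6 of them show the range; capitals mark CACGTG, and an A after CACGTG is the same T on the other strand. *Gaa* and *Atp6v0b* were lower, *Gla* was lower and X-linked, *Atg3* was higher, and *Lamp1* and *Mcoln1* were not called.
Gaa: ttttctgtgcgatCACGTGtttgactctga
Atp6v0b: gggtCACGTGgggtcggcgcatCACGTGcg
Gla: gtaagcgattgatCACGTGagcatctacgt
Atg3: ggcctccttttgtCACGTGtcctgggagag
Lamp1: atatCACGTGgtccagcgccCACGTGatgc
Mcoln1: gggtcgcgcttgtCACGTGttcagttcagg
In the same order, they are at chr11:119267810-119267839 (plus strand), chr4:117887340-117887369 (minus), chrX:134601216-134601245 (minus), chr16:45158722-45158751 (plus), chr8:13159096-13159125 (plus) and chr8:3500435-3500464 (plus). In the bases shown, *Atp6v0b* and *Lamp1* each hold a pair of CACGTG, and their log2 fold changes were -0.21 and -0.04. Outside the bases shown, CACGTG also lies at positions -28 and -15 relative to the start in *Lamp1*. Further copies lie at -45 in *Mcoln1*, -71 in *Atg3* and -194 in *Gla*. The single copy shown for *Gaa* is in the promoter of the gene with the largest decrease of the 11 (-0.84). A match of letters is not a binding site.

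The 4 lysosomal hydrolases were all lower, with a median log2 fold change of -0.62. *Gaa* (chr11:119267887-119285454, plus strand), the acid α-glucosidase that degrades glycogen, was at 41.1, 45.1 and 36.2 CPM in the cKO libraries and at 73.6, 65.9 and 78.9 CPM in the controls. The groups were widely separated, and 56.0% of the control level was left (-0.84, SE 0.0953, adjusted p = 6.16e-05 by edgeR). *Neu1* (chr17:34931253-34935953, plus strand), the sialidase, was at 37.0, 38.4 and 38.1 CPM in the cKO libraries and at 60.8, 64.4 and 62.2 CPM in the controls, with little spread within either group (-0.72, SE 0.0646, adjusted p = 1.35e-05 by edgeR). *Hexa*, a subunit of β-hexosaminidase, was lower by -0.51. *Gla*, α-galactosidase A, was at 10.9 to 16.0 CPM in cKO and 16.4 to 21.7 CPM in control libraries; the edge of the 2 ranges nearly met (-0.47, SE 0.162, adjusted p = 0.0340, edgeR), and the call was lost without cKO 1, cKO 2 or control 3.

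Of the 3 lysosomal membrane genes 0 were called by edgeR and 0 by DESeq2, and 1 of them, *Lamp2*, had an unadjusted p under 0.05 in edgeR. *Lamp1*, an abundant membrane glycoprotein of lysosomes, was at 235 to 253 CPM in cKO and 242 to 261 CPM in control libraries (log2 fold change -0.04, SE 0.0526, adjusted p = 0.535 by edgeR). *Mcoln1*, the lysosomal calcium channel, also overlapped between the groups (-0.08). *Lamp2*, needed for fusion and for chaperone-mediated uptake, was below all controls in the cKO libraries, at 131 to 139 against 144 to 161 CPM, without reaching the threshold (-0.14, adjusted p = 0.0727, edgeR).

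The V-ATPase has a cytosolic V1 sector that hydrolyses ATP and a membrane V0 sector that carries protons. Of 17 tested genes 8 were lower (47.1%), 1 was higher (5.88%) and 8 were not called, beside 24.5% and 24.1% of all tested genes; without the pseudogene 8 of 16 were lower. The median log2 fold change of the 17 was -0.18. In V1, *Atp6v1b2*, *Atp6v1d*, *Atp6v1e1* and *Atp6v1f* were lower by 0.23 to 0.58 on the log2 scale, and *Atp6v1c1*, a subunit of the link between the sectors, was higher. *Atp6v1e1*, a peripheral stalk subunit, was at 43.4, 43.9 and 46.6 CPM in the cKO libraries and at 69.1, 65.6 and 65.8 CPM in the controls, well separated (-0.58, SE 0.0639, adjusted p = 4.81e-05 by edgeR). *Atp6v1d*, of the central rotor, had a similar decrease (-0.54). *Atp6v1c1* was at 66.4, 60.01 and 58.9 CPM in the cKO libraries and at 53.9, 50.2 and 55.0 CPM in the controls (0.22, adjusted p = 0.0267 by edgeR), a call lost in 4 of 15 alternatives. *Atp6v1a*, the subunit with the catalytic site, *Atp6v1g1*, *Atp6v1g2* and *Atp6v1h* were not called, except *Atp6v1h* without control replicate 2 (adjusted p = 0.0440 by edgeR), and *Atp6v1a* had values of 107 to 116 CPM in cKO and 113 to 119 CPM in control libraries.

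In V0, *Atp6v0d1*, the subunit that couples the rotor to the proteolipid ring, had the largest called decrease. *Atp6v0d1* (chr8:105524465-105566047, minus strand) was at 66.9, 67.2 and 69.4 CPM in the cKO libraries and at 102, 105 and 113 CPM in the controls, the only V-ATPase gene past both cutoffs (log2 fold change -0.65, SE 0.0566, adjusted p = 1.14e-05 by edgeR). *Atp6v0a1*, *Atp6v0b* and *Atp6v0e* were lower by 0.18 to 0.27 on the log2 scale. The call of *Atp6v0b* was lost without cKO replicate 2 (adjusted p = 0.0560 by edgeR). That of *Atp6v0e* (adjusted p = 0.0471, edgeR) was lost in 10 of 15 alternatives, DESeq2 among them (adjusted p up to 0.142). *Atp6v0a2*, the proteolipid gene *Atp6v0c* and its processed pseudogene *Atp6v0c-ps2* overlapped between the groups; because the gene and the pseudogene can share reads, their separate levels are uncertain. *Atp6v0e2* was at 0.0889 to 0.331 CPM and was not called.

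Per length of all annotated exons of a gene, the V-ATPase subunits and their paralogs can be ranked, an order that depends on the lengths used. The proteolipid gene has no sure place in it, since *Atp6v0c* was at 35.7 TPM and its pseudogene *Atp6v0c-ps2* at 661 TPM in the controls. Among the protein-coding subunits, *Atp6v1f* (273 ± 17.5 TPM in control and 202 ± 17.2 TPM in cKO libraries, SD, n = 3) and *Atp6v0d1* (199.9 ± 8.82 and 126 ± 3.42 TPM) were the highest in the controls, followed by *Atp6v1g1* and *Atp6v0b* at 145 ± 10.8 and 141 ± 6.65 TPM, which differed by less than their SDs. Of the paralogs, *Atp6v1b2* was at 64.0 TPM in the controls with *Atp6v1b1* at 0, *Atp6v0d1* was expressed with *Atp6v0d2* at 0, and *Atp6v1g2* reached 2.22 TPM. Over the whole set, *Bnip3l*, *Lamp1* and *Sqstm1* had the highest levels of the protein-coding genes in the controls, at 327 ± 16.9, 319 ± 9.77 and 305 ± 15.9 TPM, and neighbours in this order lay within 1 SD of each other. In the cKO libraries *Lamp1* was at 307 ± 10.5 TPM, while *Sqstm1* was at 174 ± 7.13 and *Bnip3l* at 185 ± 52.1 TPM. Outside the V-ATPase, *Wipi1* was the lowest at 3.29 ± 0.354 TPM.

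**Figure D4:**
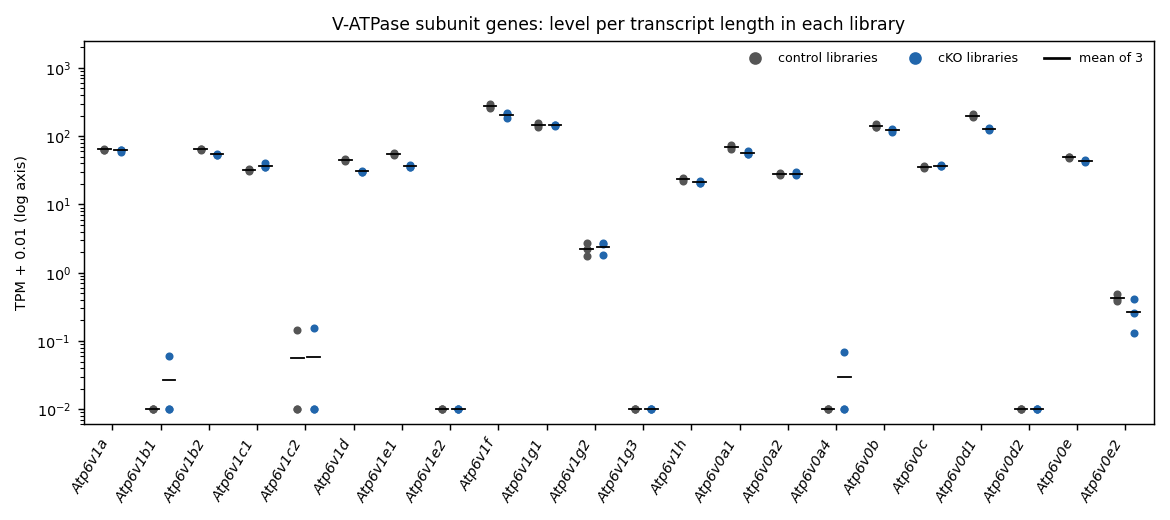
Level of each protein-coding V-ATPase gene in TPM plus 0.01 (log axis) in the 3 control (grey) and 3 cKO (blue) libraries, with a line at the mean. *Atp6v1d*, *Atp6v1e1*, *Atp6v1f* and *Atp6v0d1* show separated groups, *Atp6v1a* and *Atp6v1g1* do not, and the genes at or near 0.01 are the 6 left out by the filter on low counts.

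Transcript proportions could be examined for 12 members with at least a pair of kept RefSeq transcripts, and 0 of them changed by diffSpliceDGE of edgeR (0 also at an unadjusted p under 0.05, against 197 of 2990 genes), beside a background of 1.37%. *Nbr1* had the largest difference in shares: transcript NM_008676 held 72.2%, 54.5% and 58.2% of the estimated *Nbr1* counts in cKO and 27.9%, 22.8% and 18.4% in control libraries 1 to 3. Transcript NM_001252220 went the other way, with 4.97%, 8.10% and 1.70% in cKO and 36.7%, 25.9% and 21.1% in control libraries 1 to 3. Neither overlapped between the groups, the 2 other *Nbr1* transcripts did, and *Nbr1* was not called (adjusted p = 1.00 by edgeR), though it was called when transcripts with under 10 counts in any library were left out. For *Sqstm1*, transcript NM_011018 held 84.3% to 86.1% in cKO and 76.1% to 80.4% in control libraries (adjusted p = 0.820, edgeR). The shares of the 3 *Lamp2* transcripts were alike, with NM_010685 at 69.0 ± 3.36% in cKO and 70.1 ± 4.19% in control libraries (SD, n = 3).

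Among 125 other genes of the same pathways, chosen by function with earlier results of these data known, 123 were tested. Of these, 63 were lower (51.2%), 16 were higher (13.01%) and 44 were not called. Of all tested genes, 24.5% were lower and 24.1% higher. The median log2 fold change of the 123 was -0.28. Of 31 other hydrolases 23 were lower and 1 was higher, and the median was -0.50. *Arsa* (arylsulfatase A, -1.26) and *Sgsh* (heparan sulfamidase, -1.02) were the largest of these among genes with a mean of at least 10 CPM. Of 14 genes for fusion with lysosomes 9 were lower and 0 were higher, including *Tecpr1* (-1.03), a tethering factor, and *Plekhm1* (-0.99), an adaptor that joins RAB7, the HOPS complex and ATG8. Of 14 other tested cargo receptors and their partners 10 were lower and 2 were higher, with *Phb2*, a mitophagy receptor of the inner mitochondrial membrane, raised by 0.61.

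In 2 of the remaining lists the share of lower genes was near the 24.5% of all tested genes. Of 18 other genes of the autophagy machinery 5 were lower (27.8%), 2 were higher and 11 were not called. The 2 that rose were *Rubcn* (0.55), which encodes Rubicon, an inhibitor of the UVRAG complex, and *Zfyve1* (0.56), a marker of the membrane sites where autophagosomes start. Of 21 other lysosomal membrane genes 9 were lower (42.9%), with the endolysosomal cation channel gene *Tpcn1* at -0.91, and 5 were higher (23.8%), among them *Scarb2* (0.51), the receptor that carries glucocerebrosidase to the lysosome. Of 11 V-ATPase partners 3 were lower (27.3%) and 1 higher, and of 8 tested relatives and regulators of the MiT/TFE factors 3 were lower and 2 higher. In mannose 6-phosphate sorting 1 of 6 was lower and 3 were higher, among them *Nagpa* (0.43), the uncovering enzyme of the sorting signal, whose call was lost without control replicate 2 (adjusted p = 0.0519 by edgeR).

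**Figure D5:**
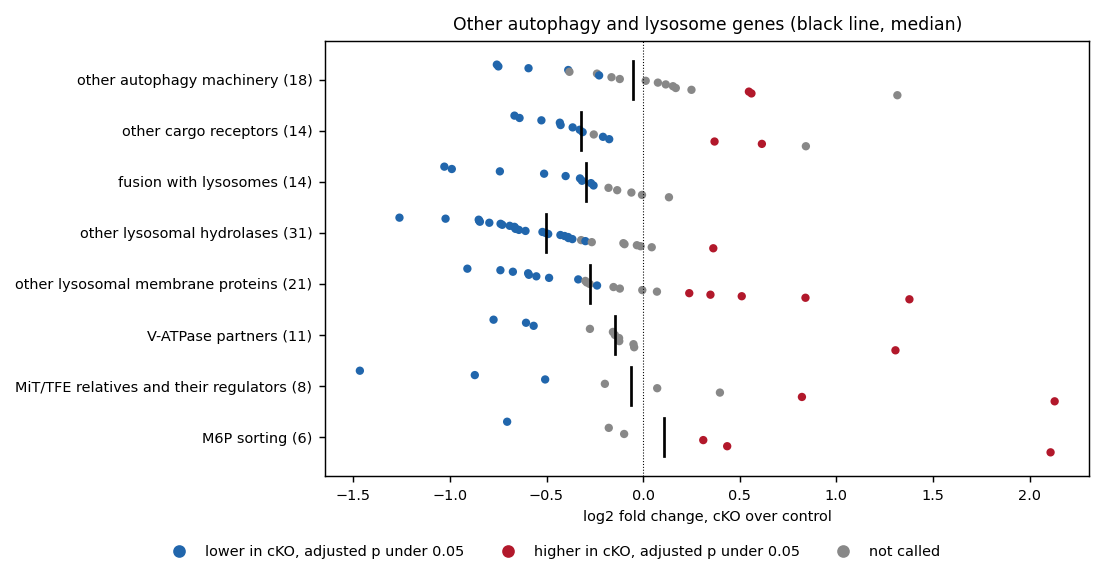
Each point is a tested gene of the 8 additional lists, placed by its log2 fold change (cKO over control; blue lower, red higher, grey not called), with a black line at the list median. The median of the other hydrolases lies at -0.50 and that of the mannose 6-phosphate (M6P) sorting genes just above 0.

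B cell identity and other cell types were measured beside these values. The 7 B cell markers were present in every library, with summed levels of 10829 to 11217 CPM in cKO and 14016 to 14954 CPM in control libraries; 3 were higher and 4 were lower, *Cd74* by -0.61. Feeder fibroblast markers (12 genes) summed to 100 to 115 CPM in cKO and 61.5 to 119 CPM in control libraries, with 3 higher, 1 lower and control 3 the lowest; *Postn* was at 0 in all libraries. The 9 macrophage markers summed to 4.08 to 6.06 CPM in cKO and 1.31 to 2.45 CPM in control libraries. Of these *Adgre1* had the highest level in every library, at 3.64 to 5.54 CPM in cKO and 0.620 to 2.02 CPM in control libraries. It was higher in cKO (log2 fold change 1.96, adjusted p = 0.00203 by edgeR), while *Marco* and *Cd14* were at 0 throughout. The sums of T cell and neutrophil markers were at most 0.355 and 0.133 CPM. The part of feeder or macrophage RNA in the members' values was not tested.

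*Xist* RNA was present in cKO 2 and in controls 1 and 2 and near 0 in the other libraries, so that the libraries within each group differ in this respect. With the *Xist* level as a covariate in edgeR, 33 members were lower and 4 were higher, 10 of the lower ones past 1.5-fold, and *Atp6v0e* and *Atp6v1c1* lost their calls. A split of the libraries by *Xist*, chosen after the data had been seen, leaves 1 library in an arm and uses members called on the same libraries, so nothing is read from it. Several tested members share exon sequence with a protein-coding gene on the opposite strand. These are *Becn1* with *Cntd1*, *Sqstm1* with *Mrnip*, *Map1lc3b* with *Zcchc14*, *Hexa* with *Tmem202* and *Lamp1* with *Grtp1*. Further cases are *Atg9a* with *Ankzf1*, *Atp6v1e1* with *Slc25a18*, *Atp6v1g2* with *Nfkbil1* and *Atp6v1h* with *Rgs20*. Others, *Atg14*, *Optn* and *Bnip3* among them, share exon sequence with a noncoding gene on the opposite strand. The strand setting of the counting was not given in the sources used here, so reads from these overlaps cannot be told apart.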

How the data were processed

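Sorted YFP+ day 3 iGCBs in 3 cKO and 3 control libraries were sequenced. The authors aligned reads to mm10 with HISAT2 and deposited estimated counts per gene and per transcript, made with StringTie and its prepDE script; versions are not given in the sources used here. The prepDE counts derive from coverage and a read length setting, so a wrong setting would scale all values alike. The deposited estimated counts were whole numbers. The study describes the 3 libraries of each group as biological replicates, and the labels do not name the mice; p-values measure the spread between these libraries.

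Counts were tested with edgeR 4.0.16 in R 4.3.3 (filterByExpr with a minimum count of 10, TMM, glmQLFit and glmQLFTest, no covariates), with Benjamini-Hochberg adjustment over all 13296 tested genes. Calls are at an adjusted p under 0.05; a second rule adds a change over 1.5-fold. The study used DESeq2, which was run here (1.42.0) as an alternative beside other scalings, filters, a replicate block and leaving out each library. Transcript use was tested with diffSpliceDGE. The edgeR, DESeq2 and diffSpliceDGE steps were run on simulated counts with known changes before use. CPM use TMM-scaled totals. TPM use the joint length of all GENCODE M21 exons of a gene, not the length of a transcript. At 3 against 3 an exact permutation test cannot go below p = 0.1, so none is reported. Floors of 3 counts cover counting error only. Promoters are from RefSeq (GRCm38.p6); a RefSeq entry matched 47 of the 61 members. The members and all lists were chosen with earlier results of these data known. Values were given in every library for genes past both rules, the largest call of each role, all ATG8 genes and *Sh3glb1*; from the other lists, the 5 largest changes in each direction with a mean of at least 10 CPM were named. Other genes were named by range to complete a group.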

Additional observations from a re-analysis of the deposited data

How the results depend on the processing

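Over 9 other scalings, filters and models the number of members called lower stayed at 32 to 34, and without 1 library at 29 to 32; 4 to 5 and 3 to 5 were called higher, with 3 without control replicate 1 and 3 without control replicate 2. Of the 39 called members, 30 kept their call under all 15 alternatives and 0 changed direction, while 9 lost it at least once (*Atp6v0b*, *Atp6v0e*, *Atp6v1c1*, *Bnip3*, *Gabarapl1*, *Gla*, *Map1lc3a*, *Pik3c3* and *Uvrag*), *Atp6v0e* in 10 of the 15. Of the 16 uncalled members, 3 were called lower without 1 library: *Atg13* and *Nbr1* without control replicate 3 and *Atp6v1h* without control replicate 2. When the test itself was set against 1.5-fold, 4 members remained past that fold (*Becn1*, *Sqstm1*, *Optn* and *Gaa*) in place of 12. That test was run on all libraries only. By the ordinary rule that gave the 12, 10 to 14 members were lower past 1.5-fold without 1 library. Of the other pathway genes 59 to 65 were lower. One member changed in transcript use when only transcripts with at least 10 counts in every library were kept (1, *Nbr1*), and 0 to 1 without 1 library (*Tfe3*, without control replicate 1). The uncalled genes near 0 that changed sign were *Atp6v1g1*, with a log2 fold change of 0.00717 under DESeq2 size factors, 0.002055 under library totals, 0.008804 in DESeq2, 0.005999 with at least 10 counts in every library, 0.0005638 with the replicate block and 0.03698 with the *Xist* level as a covariate (-0.04417 to 0.0368 without 1 library), *Atp6v1g2*, at -0.06779 with that covariate (-0.03661 to 0.2895 without 1 library), *Atp6v0a2* (-0.009715 to 0.07891) and *Atp6v0c-ps2* (-0.02155 to 0.04786). Same-numbered cKO and control libraries deviated together with correlations of 0.00851, 0.0839 and 0.133, and not every library correlated best with its own number, so the numbers were not taken to pair the libraries; the replicate block left 33 members lower and 5 higher. At this depth the 6 members left out by the filter on low counts could not be compared, and *Atp6v0e2*, the 1 tested member under 1 CPM, had an SE of 0.678 on the log2 scale.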
